A study of Homo sapiens with 4 samples.

Results

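The 40 genes described here encode nuclear subunits of respiratory complexes II (4 genes), III (9), IV (11) and V (16), though not every such subunit. They were chosen by name, as subunits of these complexes, and each was matched through GENCODE to its row in the gene count table. COX7A2L, a supercomplex factor, is counted with complex IV, and ATP5IF1, an inhibitor, with complex V. The chosen genes are 40 of the 65217 genes in the count table, and all 40 were among the 17075 genes tested. The counts came from human SEM cells, a B-cell precursor acute lymphoblastic leukaemia line carrying the KMT2A-AFF1 (MLL-AF4) fusion, that had been transplanted into mice aged 6 to 10 weeks. Cells had been retrieved from the brain and, for comparison, from the spleen. All libraries came from the same line with the same fusion, and no drug or further genetic change is given for either group. The sample records list the same culture oxygen and culture glucose for all libraries. Each group had 2 libraries. RNA from 5 mice was pooled in each library, and the replicate number marks a separate occasion of the whole transplantation, so a library does not show how single animals vary. The leukaemic cells had been separated by Ficoll gradient, with purity checked by flow cytometry, but the sources used here give neither the purities nor the strain and sex of the mice. The protocol names the leptomeninges, the membranes around the brain, where the sample labels say brain.

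Complexes II to V carry out the later steps of respiration in the inner mitochondrial membrane. Complex II, succinate dehydrogenase, takes electrons from succinate in the citric acid cycle, complex III passes electrons from ubiquinol to cytochrome c, and complex IV hands them to oxygen. Complex V, the ATP synthase, uses the proton gradient that results to make ATP. Complexes III, IV and V each contain subunits made from mitochondrial DNA beside their nuclear ones, whereas complex II is encoded in the nucleus alone.

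The gene counts summed to between 33055465 and 36913437 in the brain libraries and between 26266136 and 32972842 in the spleen libraries. The subunits had between 1317 and 34833 counts in any library, and the spread between libraries was unequal between the groups. Between replicates the mean chi-square per gene was 9.49 for brain and 67.6 for spleen, and sampling alone would give 1. Spleen replicate 2 stood apart by base composition, with a median deviation from the 4-library mean of -0.38 (log2) across the quintile of genes with the least GC, against 0.13 to 0.15 in the other libraries. Mouse transcripts took 2.24% and 1.45% of the estimated counts in brain, against 4.31% and 6.32% in spleen. The 13 markers of B-cell precursor leukaemia were all detected, with a summed level of 3031 and 3004 CPM (counts scaled to a common library size with TMM factors) in brain and 2556 and 2547 CPM in spleen. Human transcripts of the markers of neurons summed to 0.704 and 0.817 CPM in brain and 0.849 and 0.952 CPM in spleen, with 2 of the 5 at 0 in every library. The 4 astrocyte markers summed to 0.461 and 0.303 CPM in brain and 0.728 and 0.685 CPM in spleen. The 4 oligodendrocyte markers, of which 1 passed the filter for testing, summed to 101 and 104 CPM in brain and 107 and 136 CPM in spleen. The 6 markers of microglia and macrophages summed to 53.1 and 39.7 CPM in brain and 56.1 and 45.5 CPM in spleen. The 6 markers of endothelium and stroma summed to 75.5 and 53.9 CPM in brain and 35.1 and 33.0 CPM in spleen. The 5 markers of T and NK cells summed to 62.4 and 54.8 CPM in brain and 72.7 and 84.1 CPM in spleen, with 2 of them at 0 throughout. The part of these other cell types in the results was not tested.

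Some promoters of these genes hold short motifs that the choice of genes did not use. RefSeq promoters (GRCh38.p14, 250 bases before to 50 after the start) were found for 32 of the 40 genes. The motif CCGGAAG, the core bound by factors of the ETS family such as GABP, was searched on both strands and lay in 15 of the 32 (46.9%), against 3321 of 27305 promoters in the whole table (12.2%). It lay in 2 of 3 promoters of complex II, 3 of 7 of complex III, 5 of 10 of complex IV and 5 of 12 of complex V. The palindrome bound by NRF1 (AT with GCGC on either side) lay in 2 of the 32 (6.25%), SDHD and ATP5F1C, against 414 of all promoters (1.52%). Neither motif lay in 16 of the 32, and no test of enrichment was run. A match is a description of letters and not of a bound site. The following 4 promoters are shown because they belong to the gene of each complex that combined a motif with one of the largest differences between brain and spleen cells. They were picked after the values were seen. Each is written 5′ to 3′ on the gene's own strand, with CCGGAAG or its reverse complement CTTCCGG in capitals. The windows are chr1:17053983-17054282 on the minus strand for SDHB, chr19:1605413-1605712 on the minus strand for UQCR11, chr11:63974370-63974669 on the plus strand for COX8A and chr4:674227-674526 on the minus strand for ATP5ME.
SDHB: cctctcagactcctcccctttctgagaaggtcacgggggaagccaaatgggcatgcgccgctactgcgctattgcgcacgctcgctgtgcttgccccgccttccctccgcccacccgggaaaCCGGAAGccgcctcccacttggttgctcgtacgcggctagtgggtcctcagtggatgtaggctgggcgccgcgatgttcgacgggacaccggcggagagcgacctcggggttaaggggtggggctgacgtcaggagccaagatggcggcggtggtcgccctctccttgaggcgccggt
UQCR11: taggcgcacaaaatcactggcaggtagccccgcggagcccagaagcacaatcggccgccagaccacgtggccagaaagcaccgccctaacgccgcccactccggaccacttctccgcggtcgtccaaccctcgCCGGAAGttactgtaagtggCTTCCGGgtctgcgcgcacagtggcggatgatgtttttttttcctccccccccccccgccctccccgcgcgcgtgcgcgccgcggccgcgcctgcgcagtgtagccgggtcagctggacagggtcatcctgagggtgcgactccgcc
COX8A: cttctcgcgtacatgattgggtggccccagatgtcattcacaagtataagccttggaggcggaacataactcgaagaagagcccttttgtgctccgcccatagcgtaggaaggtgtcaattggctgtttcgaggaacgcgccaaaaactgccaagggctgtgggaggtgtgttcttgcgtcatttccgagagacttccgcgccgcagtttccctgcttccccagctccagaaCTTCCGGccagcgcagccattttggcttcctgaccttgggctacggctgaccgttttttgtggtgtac
ATP5ME: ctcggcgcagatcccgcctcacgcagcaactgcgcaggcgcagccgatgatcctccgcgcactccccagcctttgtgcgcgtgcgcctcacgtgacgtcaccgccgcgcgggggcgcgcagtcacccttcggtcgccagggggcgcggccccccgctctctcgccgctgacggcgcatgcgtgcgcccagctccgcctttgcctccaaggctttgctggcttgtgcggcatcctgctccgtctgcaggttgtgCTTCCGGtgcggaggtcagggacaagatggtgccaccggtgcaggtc
The capitals begin 128 bases before the start in SDHB, 117 and 97 bases before it in UQCR11 and 18 bases before it in COX8A. In ATP5ME they begin at base 4 after the start, inside the transcript.

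Transcripts of complexes III, IV and V were lower in SEM cells from brain than in those from spleen, and those of complex II differed less, although no test set the complexes against each other. The fitted log2 fold change, brain over spleen, was negative for all 40 genes, where 46.7% of all genes tested had a negative one. Its median was -0.46 over the 40, with a range of -0.75 (ATP5ME) to -0.02 (UQCRC2), against a median of 0.04 over all genes. No single gene passed edgeR's quasi-likelihood test at a Benjamini-Hochberg adjusted p of 0.05, where 0.387% of all genes were called lower in brain. The smallest adjusted p was 0.0667 (ATP5ME). At an unadjusted p of 0.05, 27 of the 40 were lower in brain, against 9.94% of all genes. DESeq2 called 9 of the 40 lower, against 2.33% of all genes. With the occasion as a block in the edgeR fit, 10 of the 40 were called lower in brain, against 3.37% of all genes, and none was called higher. DESeq2 with the same block called 0 of the 40 (smallest adjusted p 0.0614), against 0.615% of all genes called lower. At an unadjusted p of 0.05 in that fit, 23 of the 40 were lower, against 924 of the 17075 genes tested. In bulk samples, fewer cells holding a transcript and less of it per cell cannot be told apart.

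**Figure D1:**
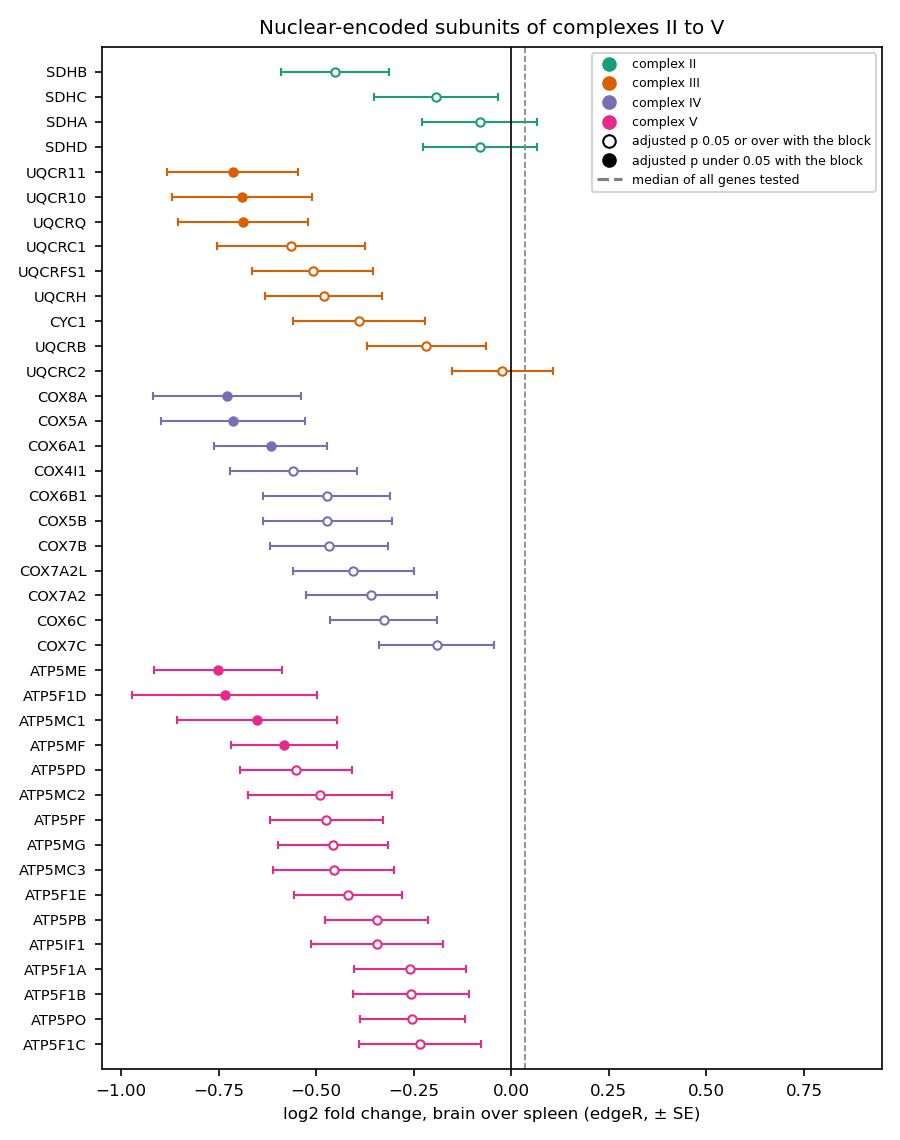
Fitted log2 fold change, brain over spleen (x axis), of each of the 40 subunits, with bars of ± the SE implied by edgeR's test. Filled points mark the 10 genes with an adjusted p under 0.05 in the edgeR fit with the occasion as a block. The dashed line is the median of all genes tested (0.04). All 40 points lie left of 0.

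In 35 of the 40 genes both brain libraries lay below both spleen libraries, against 26.7% of all genes. These were 1 of 4 genes of complex II, 8 of 9 of complex III, 10 of 11 of complex IV and all 16 of complex V. The groups overlapped for SDHA, SDHC, SDHD, UQCRC2 and COX7C. The 2 brain libraries lay close together and the 2 spleen libraries further apart, the SD being larger in spleen for 36 of the 40 genes. Spleen replicate 2 was the higher of the spleen libraries for 33 of them. Taken by occasion, the brain library was the lower for 36 of 40 genes on occasion 1 (median log2 ratio -0.28, all genes 0.00) and for 39 of 40 on occasion 2 (median -0.60, all genes 0.06).

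**Figure D2:**
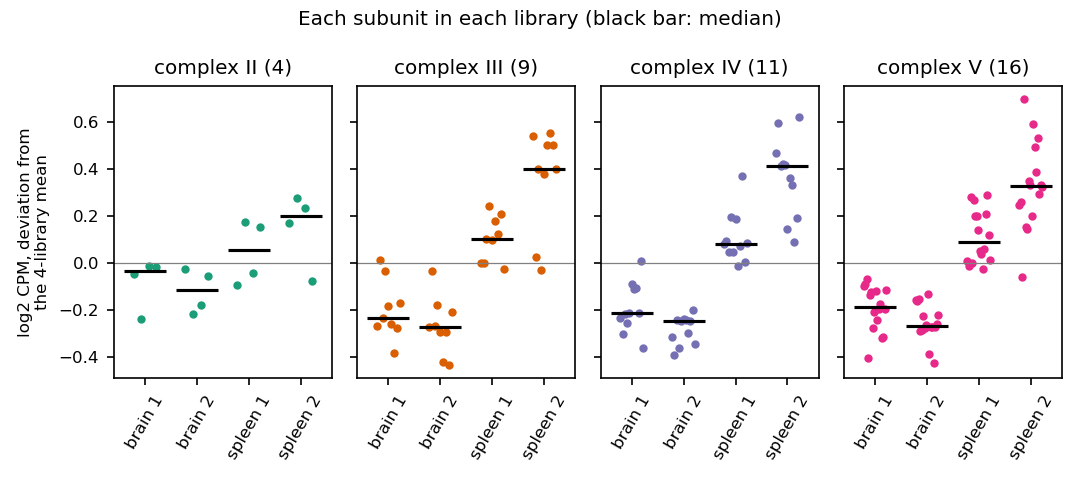
Log2 CPM of each subunit in each library, as the deviation from its mean over the 4 libraries (y axis), in 1 panel per complex; points are genes and black bars medians. By the medians, in every complex both brain libraries lie lowest, spleen replicate 1 is higher and spleen replicate 2 highest. The medians differ least in complex II, where the groups overlap for 3 of 4 genes. Single genes can depart from this order, and spleen replicate 2 is the higher spleen library for 33 of the 40.

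Without spleen replicate 2 the log2 fold change was negative for 38 of the 40 genes, with a median of -0.33 against 0.02 over all genes. In that fit 27 of the 40 were called lower, against 7.63% of all genes. Without spleen replicate 1 the median was -0.63 and 36 were called lower, against 19.0% of all genes. In both fits the spread comes from the brain libraries alone, and the lone spleen library is assumed to vary like them.

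Complex II stood nearest to no difference. SDHB, the iron-sulphur subunit, had 76.2 and 77.4 CPM in brain and 101 and 109 CPM in spleen. Both brain libraries were lower than both spleen libraries, the only gene of the complex for which this held. Its log2 fold change was -0.45 ± 0.14 (SE), with an adjusted p of 0.133 by edgeR's quasi-likelihood test. SDHC and SDHD anchor the complex in the membrane. SDHC had 81.5 and 72.8 CPM in brain and 79.8 and 96.5 CPM in spleen (log2 fold change -0.19 ± 0.16). SDHD had 108 and 106 CPM in brain and 122 and 104 CPM in spleen (log2 fold change -0.08 ± 0.15). In SDHC and SDHD the groups overlapped, and the difference was about the size of its standard error or below it. SDHA, the flavoprotein, had a log2 fold change of -0.08. Its 4 annotated pseudogenes held 23.0% and 28.2% of the summed gene and pseudogene counts in brain and 23.0% and 18.5% in spleen, so its value depends on how the counting split them. It was the only one of the 40 genes with a pseudogene share over 5%. The median log2 fold change of the complex was -0.14, and without spleen replicate 1 it was -0.32.

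In complex III, the genes furthest below their spleen level were 3 small subunits. UQCR11, a small accessory subunit, had 43.0 and 38.6 CPM in brain and 60.1 and 73.8 CPM in spleen. UQCRQ, which sits close to cytochrome b, had 62.7 and 56.0 CPM in brain and 84.9 and 106 CPM in spleen. UQCR10, another small accessory subunit, had 50.1 and 53.2 CPM in brain and 71.1 and 95.6 CPM in spleen. In each of the 3, both brain libraries were the lower ones. Their log2 fold changes were, in the same order, -0.71 ± 0.17, -0.69 ± 0.17 and -0.69 ± 0.18 (SE). The edgeR adjusted p of UQCR11, UQCRQ and UQCR10 was 0.0791, 0.0844 and 0.0972. With the occasion as a block edgeR called all 3 lower in brain (adjusted p 0.0149, 0.0140 and 0.0166). DESeq2 with the same block called 0 genes of complex III (smallest adjusted p 0.0965). UQCR11 overlaps an unnamed protein-coding gene (ENSG00000267059) on the same strand whose count was 22.5% of its own, so part of its count may belong to either.

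UQCRH, the hinge protein that binds cytochrome c1, and UQCRB, a subunit near the ubiquinone site, had the highest levels per length in the complex. UQCRH had 146 and 135 CPM in brain and 177 and 215 CPM in spleen (log2 fold change -0.48 ± 0.15). UQCRB had 164 and 148 CPM in brain and 198 and 164 CPM in spleen (log2 fold change -0.22 ± 0.15), and its brain replicate 1 and spleen replicate 2 were almost level. The remaining 4 genes had log2 fold changes from -0.56 to -0.02. UQCRC2, a core protein that is named here after its values were seen, marked the upper end, with 196 and 190 CPM in brain and 194 and 198 CPM in spleen, and its groups overlapped. Over the complex, 6 of 9 genes were lower at an unadjusted edgeR p of 0.05, against 9.94% of all genes. The median log2 fold change was -0.51.

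In complex IV, COX8A, COX5A and COX6A1 were furthest below spleen. COX8A, a small membrane-spanning subunit, had 108 and 110 CPM in brain and 147 and 213 CPM in spleen. COX5A, a subunit on the matrix side of the enzyme, had 120 and 113 CPM in brain and 158 and 224 CPM in spleen. COX6A1, the widely expressed isoform of subunit VIa, had 134 and 125 CPM in brain and 183 and 214 CPM in spleen. The groups did not overlap in any of the 3, and spleen replicate 2 was well above spleen replicate 1 in COX8A and COX5A. Log2 fold changes were -0.73 ± 0.19, -0.71 ± 0.18 and -0.62 ± 0.14 (SE). The edgeR adjusted p of COX8A, COX5A and COX6A1 was 0.0987, 0.0976 and 0.0776. With the occasion as a block edgeR called all 3 lower in brain (adjusted p 0.00681, 0.00827 and 0.0223). DESeq2 with the same block called 0 genes of complex IV (smallest adjusted p 0.0780).

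COX4I1, the widely expressed isoform of subunit IV, which binds ATP and ADP, had 266 and 252 CPM in brain and 331 and 432 CPM in spleen. Among the 9 genes of the complex with complete TPM it had the highest level per length, a mean of 708 TPM, and a log2 fold change of -0.56 ± 0.16 (edgeR adjusted p 0.120, and 0.0508 with the block). COX7C, next in level per length at 555 TPM, had 197 and 170 CPM in brain and 196 and 223 CPM in spleen (log2 fold change -0.19 ± 0.15), and here the groups overlapped. COX7A2L, which joins complexes III and IV in supercomplexes, had 111 and 97.7 CPM in brain and 126 and 151 CPM in spleen (log2 fold change -0.41 ± 0.16). Its brain libraries were both lower, with an edgeR adjusted p of 0.197. The other 5 genes lay between -0.47 and -0.33. Over the complex, 9 of 11 genes were lower at an unadjusted edgeR p of 0.05, against 9.94% of all genes. The median log2 fold change was -0.47.

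**Figure D3:**
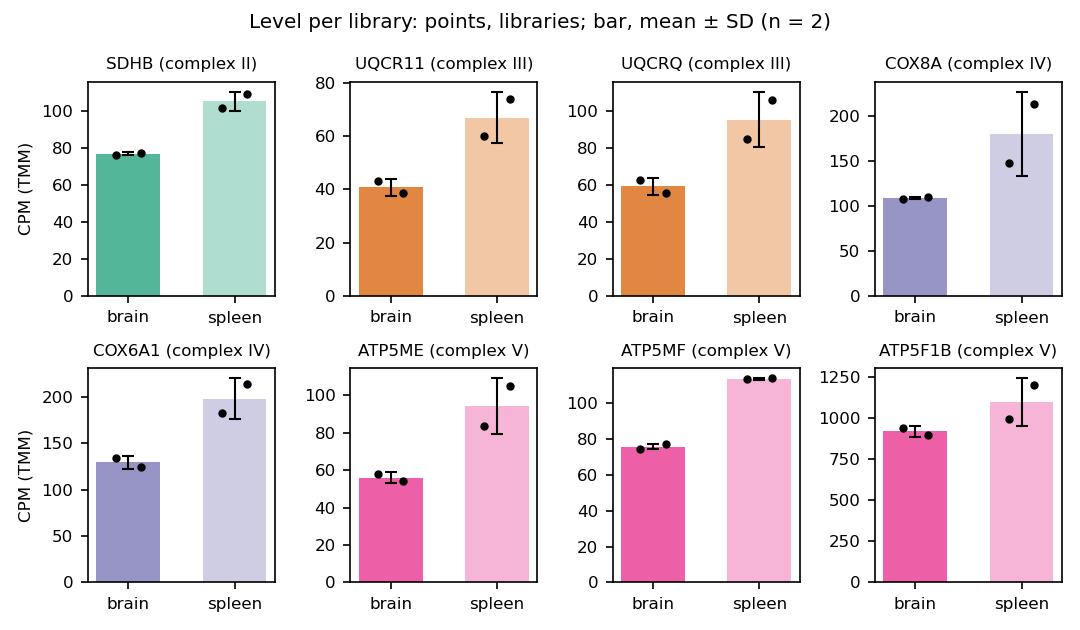
CPM with TMM factors (y axis) of 8 subunits in brain (left in each panel) and spleen (right); points are libraries and bars the mean ± SD (n = 2). The brain points lie below the spleen points in every panel, from SDHB (76.8 ± 0.838 in brain, 105 ± 5.11 in spleen) to ATP5F1B (919 ± 32.1 in brain, 1098 ± 146 in spleen).

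Complex V is built from a catalytic head (ATP5F1 genes), a stalk (ATP5P genes) and a membrane part with the proton-carrying c ring (ATP5MC genes) and small subunits (ATP5M genes). ATP5ME, the membrane subunit e, which takes part in pairing ATP synthases into dimers, had 58.0 and 54.0 CPM in brain and 83.7 and 105 CPM in spleen. ATP5MF, the membrane subunit f, had 74.7 and 76.9 CPM in brain and 113 and 114 CPM in spleen. In both genes the brain libraries were the lower ones, and the spleen libraries of ATP5ME differed more than those of ATP5MF. Log2 fold changes were -0.75 ± 0.16 and -0.58 ± 0.14 (SE). The edgeR adjusted p was 0.0667 and 0.0768, and edgeR called both lower in brain with the block (0.00625 and 0.0384). DESeq2 with the same block called 0 genes of complex V (smallest adjusted p 0.0614). ATP5MF shares its strand with PTCD1 and with the readthrough gene ATP5MF-PTCD1, whose counts were 14.2% and 7.46% of its own.

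The head subunits differed among themselves. ATP5F1D, the delta subunit of the central stalk, had 44.7 and 48.4 CPM in brain and 59.1 and 95.9 CPM in spleen. Its log2 fold change was -0.73 ± 0.24 (edgeR adjusted p 0.154, and 0.0149 with the block), the widest error of the 40, and its spleen libraries differed most. ATP5F1B, the catalytic beta subunit, had the highest level per length of the 37 subunits with complete TPM, a mean of 803 TPM. It had 942 and 896 CPM in brain and 995 and 1201 CPM in spleen, without overlap, and a log2 fold change of -0.26 ± 0.15 (edgeR adjusted p 0.366). The alpha and gamma subunits ATP5F1A and ATP5F1C, named after their values were seen, had log2 fold changes of -0.26 and -0.23, beside that of ATP5F1B.

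The c ring is made of a protein encoded by 3 genes, ATP5MC1, ATP5MC2 and ATP5MC3, whose mature products are known to be identical. ATP5MC1 had 46.3 and 41.8 CPM in brain and 56.2 and 82.5 CPM in spleen (log2 fold change -0.65 ± 0.21; edgeR adjusted p 0.141, and 0.0364 with the block). ATP5MC2 had 333 and 316 CPM in brain and 376 and 537 CPM in spleen (log2 fold change -0.49 ± 0.18). ATP5MC3 had 174 and 163 CPM in brain and 205 and 257 CPM in spleen (log2 fold change -0.46 ± 0.16). All 3 were lower in both brain libraries, and only ATP5MC1 was called lower by edgeR with the block. Their shares of the summed counts hardly moved. ATP5MC2 held 60.2% and 60.7% in brain and 59.0% and 61.2% in spleen, and ATP5MC1 held 8.36% and 8.03% in brain and 8.82% and 9.41% in spleen.

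ATP5IF1, the inhibitor that binds the head and blocks ATP hydrolysis, had 43.7 and 40.7 CPM in brain and 47.8 and 59.4 CPM in spleen (log2 fold change -0.34 ± 0.17; edgeR adjusted p 0.294). It lay in the same direction as the enzyme it inhibits, with no overlap between the groups. The 8 genes of complex V outside the rule for named genes had log2 fold changes from -0.55 to -0.23. Over the complex, 11 of 16 genes were lower at an unadjusted edgeR p of 0.05, against 9.94% of all genes. The median log2 fold change was -0.46.

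Levels per length, summed over the genes of each complex, gave the same order of complexes in every library. The sums cover unequal numbers of genes, so this order is not one of levels per gene. TPM, a level scaled for transcript length and library size, was summed over the 37 genes with complete transcript records, which leaves out COX6B1, COX7B and ATP5MC2 and gives 4, 9, 9 and 15 genes for complexes II to V. Complex V was highest, at 4578 and 4705 TPM in brain and 5327 and 5441 TPM in spleen. Complex IV summed to 3519 and 3481 TPM in brain and 4004 and 4437 TPM in spleen, and complex III to 1772 and 1769 TPM in brain and 2011 and 2087 TPM in spleen. Complex II was lowest, at 429 and 435 TPM in brain and 440 and 436 TPM in spleen. The brain libraries lay below the spleen libraries in complexes III, IV and V, by more than the replicates differed. In complex II the brain and spleen sums were about as close as the replicates. The median log2 ratio of all genes on this scale was 0.25, so these sums were not level against all genes. These TPM are scaled over human and mouse transcripts together. Mouse transcripts took 2.51% and 1.64% of TPM in brain, against 5.56% and 7.01% in spleen. Over human transcripts alone the log2 ratio of the complex II sums, brain over spleen, was -0.083, so how level they are depends on the mouse share. With 2 libraries a group, an exact permutation test cannot go below 0.33, so no p is given. Complex II stood to complex V as 0.0938 and 0.0924 in brain, against 0.0826 and 0.0801 in spleen, without overlap. Complex III stood to complex V as 0.387 and 0.376 in brain, against 0.378 and 0.384 in spleen, and these values overlapped.

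TPM and CPM with TMM factors put the zero at different places. On the TPM scale the median log2 ratio of all genes, brain over spleen, was 0.25, and that of the subunits -0.24. By that scale 32 of the 37 subunits were lower in brain and 5 higher, where 4420 of 15380 genes were lower and 10960 higher. Against the median of all genes, the subunits lay at -0.49 on the TPM scale, and 36 of 37 were under it. Complex II lay at -0.26 against that median, with all 4 of its genes under it.

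**Figure D4:**
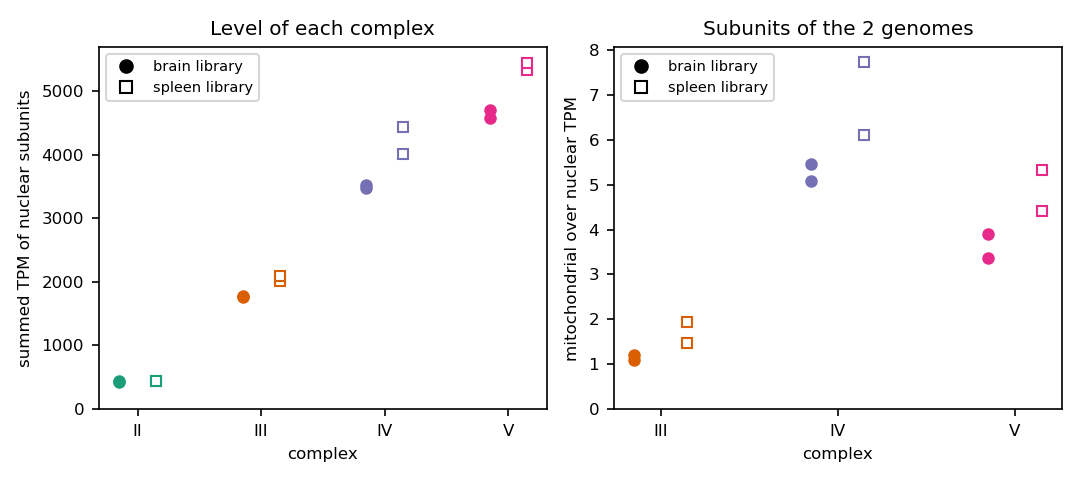
Left, the summed TPM of the nuclear subunits of each complex in each library (y axis); right, the TPM of the mitochondrially encoded subunits over that of the nuclear subunits, for complexes III, IV and V. Filled circles are brain libraries and open squares spleen libraries, and the brain values are the lower ones everywhere except that the complex II sums are almost level.

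The 6 subunits of complexes III to V encoded by mitochondrial DNA had a median log2 fold change of -0.99, against -0.46 for the 40 nuclear genes, and no test compared the 2 sets. The range was -1.04 to -0.66, and MT-CO1, at the upper end, lay nearer 0 than COX8A and COX5A of its own complex. MT-ATP8, a subunit of the membrane part of complex V, had 356 and 325 CPM in brain and 585 and 773 CPM in spleen, with a log2 fold change of -0.99 ± 0.17 and a lower level in brain by the test (edgeR adjusted p 0.0337). With the block 5 of the 6 were called lower by edgeR, against 3.37% of all genes. Without the block MT-ATP8 was the only one of the 6 called, where 0.387% of all genes were called lower. Its call was lost with length and GC trends removed (edgeR adjusted p 0.0718), under a filter of 1 CPM in every library (0.0602) and without brain replicate 2 (0.0815). MT-ATP8 overlaps MT-ATP6 on the same strand, so that counts can be split between them. The mitochondrial to nuclear TPM ratio of complex III came to 1.09 and 1.21 in brain, against 1.48 and 1.94 in spleen. That of complex IV came to 5.09 and 5.45 in brain, against 6.11 and 7.73 in spleen. That of complex V came to 3.35 and 3.90 in brain, against 4.41 and 5.32 in spleen. The brain libraries had the lower ratios in all 3 complexes, and spleen replicate 2 the highest.

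The subunit transcripts are short, and the comparison depended on length. The mean transcript length, weighted by TPM, had a median of 763 bases over 37 subunits (362 to 3475), against 2103 bases over all genes tested. Among all genes, the quintile with the shortest transcripts had a median log2 fold change of -0.16, that with the longest one of 0.24. The 27 subunits in the shortest quintile had a median of -0.47 and the 10 longer ones -0.32. In the shortest quintile of all genes, 60.8% had a negative fold change, 38.6% had both brain libraries below both spleen libraries and 19.8% were lower at an unadjusted p of 0.05. Across the 37 subunits, which share libraries and differ in base composition, the fold change correlated with log2 length at a Pearson r of 0.51 and with GC percent at -0.55. Without spleen replicate 2 these were 0.49 and -0.12. With the trends of length and GC over all genes removed, all 40 fold changes were still negative. Their median was -0.37 against -0.05 over all genes, and 1 gene, ATP5ME, was called lower (edgeR adjusted p 0.0475), against 1.7% of all genes.

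**Figure D5:**
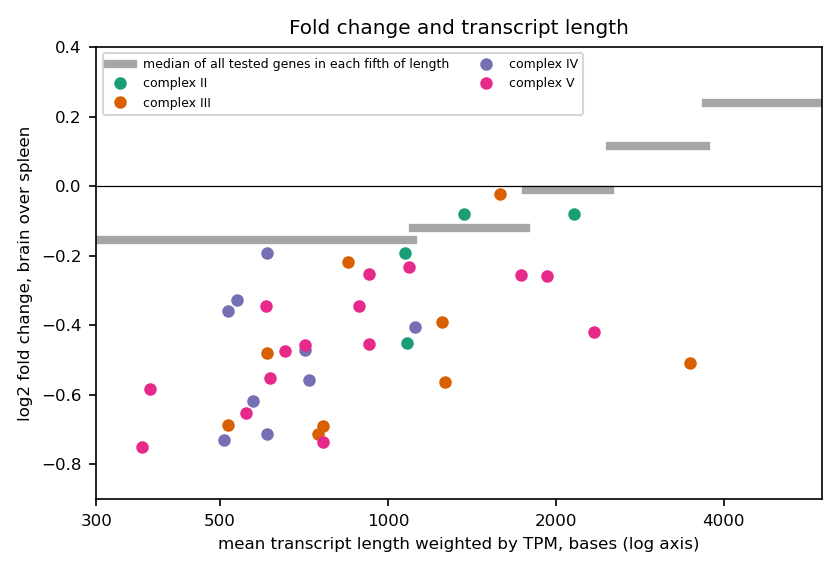
Log2 fold change, brain over spleen (y axis), of 37 subunits against their mean transcript length weighted by TPM (x axis, log scale), coloured by complex. Grey bars are the medians of all genes tested in each quintile of length, from -0.16 in the shortest to 0.24 in the longest, and most subunits lie below the bar of their own length.

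The makeup of the transcripts moved little. Of the subunits' TPM, 81.0% in both brain libraries, and 82.1% and 82.9% in spleen, fell to transcripts annotated as protein-coding. Transcripts annotated as targets of nonsense-mediated decay held 7.40% and 7.18% in brain, against 6.76% and 6.01% in spleen. The transcript UQCR11-202, a coding form, held 6.59% and 10.2% of the TPM of UQCR11 in brain, against 21.1% and 23.7% in spleen. It was picked after the values were seen, and short-read estimates of single transcripts carry an error that was not measured here. Annotated pseudogenes took 0.659% and 0.913% of the summed counts of the 40 subunits and their pseudogenes in brain, against 0.551% and 0.440% in spleen. Such pseudogenes were found for 30 subunits, and those of SDHA held most of these counts. Of the 40 genes, 8 overlap a gene with over 5% of their own count. The largest such share was that of GABPA, on the opposite strand to ATP5PF, at 86.4%, and the sources used here do not give the strand setting of the counting.

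Genes that serve the complexes without being subunits had medians nearer 0 than the -0.46 of the 40 subunits, though several lists lay further from 0 than the complex II subunits (-0.14). None of the 12 electron carrier and coenzyme Q genes was called (median log2 fold change -0.20). CYCS, cytochrome c itself, had 116 and 112 CPM in brain and 134 and 118 CPM in spleen (-0.14 ± 0.14). COQ8A, a kinase-like protein of coenzyme Q synthesis, lay at 0.06 ± 0.15. The groups of CYCS lay close together.

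None of the assembly factors was called by the edgeR fit. The 4 of complex II had a median of -0.31, with SDHAF2, which helps attach the flavin to SDHA, at -0.40 ± 0.17 and SDHAF3 at -0.06 ± 0.28. The 6 of complex III had a median of -0.23. Among them UQCC3 had 16.8 and 15.3 CPM in brain and 23.1 and 31.7 CPM in spleen, and fell with the block (log2 fold change -0.75, edgeR adjusted p 0.0149). LYRM7, which hands the iron-sulphur protein to complex III, had 51.5 and 48.9 CPM in brain and 40.5 and 17.3 CPM in spleen, and rose with the block (0.92, adjusted p 0.00161). Spleen replicate 2 was the low library of LYRM7, whose mean transcript is long and low in GC (36.9%). With those trends removed as well as the block, its log2 fold change was 0.42 and the call was lost (edgeR adjusted p 0.0705). The 25 tested of complex IV had a median of -0.29, and 2 were called lower with the block, against 3.37% of all genes. These were COA3, which stabilises newly made COX1, and SLIRP, which binds mitochondrial mRNA with LRPPRC (edgeR adjusted p 0.0204 and 0.0417). DESeq2 with the block called none of UQCC3, LYRM7, COA3 and SLIRP (adjusted p 0.0901 to 0.174). The 5 of complex V had a median of -0.15, with ATPAF2 at -0.03 ± 0.19 and TMEM70 at -0.15 ± 0.16.

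The 8 supercomplex and hypoxia-linked factors, which include COX7A2L and ATP5IF1, had a median of -0.36 with none called. CHCHD10 fell with the block (log2 fold change -0.66, edgeR adjusted p 0.0374), a call that was lost with trends removed as well (-0.41, adjusted p 0.0783) and in DESeq2 with the block (adjusted p 0.186). CHCHD2, a paralogue that activates transcription of the COX4I2 isoform, had 283 and 268 CPM in brain and 345 and 455 CPM in spleen (-0.54 ± 0.16). The alternative isoforms themselves were hardly expressed. COX4I2, the lung and hypoxia isoform of subunit IV, and COX6A2, the muscle isoform of subunit VIa, had 0 counts in every library. With a limit of 3 counts, this allows a level of up to 0.0813 to 0.114 CPM, depending on the library. Of 12 alternative or further subunits 6 were tested, and none was called. The 2 of highest level were ATP5MK, at 59.0 and 52.1 CPM in brain and 71.1 and 65.9 CPM in spleen, and ATP5MJ, at 70.3 and 62.0 CPM in brain and 84.1 and 99.5 CPM in spleen. Both had lower brain libraries, with log2 fold changes of -0.30 ± 0.15 and -0.47 ± 0.16.

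The transcriptional regulators of respiratory genes were near no difference. Of 14 tested none was called, and their median log2 fold change was -0.04, with 7 above 0 and 7 below it. YY1, a zinc-finger factor, lay at -0.11 ± 0.13 and TFAM, which packages mitochondrial DNA and starts its transcription, at 0.12 ± 0.17. GABPA, the DNA-binding part of the ETS factor GABP, had 89.9 and 93.6 CPM in brain and 83.2 and 36.3 CPM in spleen. It rose with the block (log2 fold change 0.74, edgeR adjusted p 0.00888) and had an adjusted p of 0.493 without it. Spleen replicate 2 alone was far below the other libraries, and GABPA overlaps ATP5PF on the opposite strand. The call was lost with the block and the length and GC trends removed (log2 fold change 0.26, edgeR adjusted p 0.316) and in DESeq2 with the block (adjusted p 0.219). PPARGC1A, the coactivator PGC-1alpha, had 4 and 9 counts in brain and 1 and 1 in spleen, too few to test.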

How the data were processed

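RNA of SEM cells was sequenced from 2 brain and 2 spleen pools, from stranded poly(A) libraries. The submitters' processing notes name kallisto 0.42.4, DESeq2, cutadapt 1.5 and bcl2fastq 1.8.4 as tools and GRCh38 and GRCm38 as builds, without the strand option. The authors deposited estimated counts and TPM per human and mouse transcript, and a gene table of whole-number counts, which are rounded estimated counts. The deposited tables hold 2 columns that match no sample, and these were not used. Identifiers were matched to GENCODE release 44 (86.4% found), and SCO2 matched no row.

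Gene counts were tested with edgeR 4.0.16 (R 4.3.3; TMM, filterByExpr, robust quasi-likelihood fit, Benjamini-Hochberg over 17075 genes, threshold 0.05). P-values measure only the spread between these libraries. Each SE is the one implied by the quasi-likelihood test, the absolute log2 fold change over the square root of F. Per the labels' protocols the replicate number marks an occasion and so pairs a brain with a spleen library; deviations of same-numbered libraries correlated at 0.0269 (Pearson, across genes). Depth and pseudogene, overlap and promoter counts were taken as described with the results. The count test was also run on simulated counts with the same spread in both groups. The real spread was unequal, so that run does not vouch for the test on these libraries. Alternatives were other scaling, DESeq2 1.42.0, filters, the block, removal of length and GC trends, transcript sums and leaving out each library.

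Values per library are given for subunits called with or without the block, the 2 highest in TPM and the 2 of largest fold change in each complex, the ATP5MC genes, COX7A2L and ATP5IF1. Of each other list the called genes, or else the 2 of highest TPM, are named. Members and lists were chosen with earlier results of these data known.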

Additional observations from a re-analysis of the deposited data

How the results depend on the processing

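The median log2 fold change of the 40 subunits stayed negative under all 14 alternatives, between -0.63 and -0.33, while that of all genes lay between -0.05 and 0.07. Counts of calls did not hold. The number of subunits called, all lower in brain, was 0 in the main test and 9 with DESeq2, against 0.387% and 2.33% of all genes called lower. It was 17 without a filter on low counts, against 2.47% of the 34540 genes then tested. With length and GC trends removed it was 1, against 1.7% of all genes. With trends removed and the block it was 12, against 6.31%. With the replicate block alone it was 10, against 3.37%, the pairing being that of the occasion. Leaving out 1 library gave 0 to 36. DESeq2 with the block called 0, the same as other size factors, the stricter filter, transcript sums and protein-coding genes alone. Over all genes, 345 were called in the main test, 959 with DESeq2 (561 higher, 398 lower), 2123 without a filter, 124 with at least 1 CPM in every library, 1853 with the block (1278 higher, 575 lower), 789 with trends removed (499 higher, 290 lower), 2321 with trends removed and the block (1243 higher, 1078 lower), 201 among protein-coding genes and 404 to 6807 with 1 library left out. The cause of these shifts was not tested. Without a library of 1 group the other group alone sets the spread.

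The sign turned for 2 genes near 0. SDHA lay at 0.069 without spleen replicate 2. UQCRC2 lay at 0.0017 under the stricter filter, 0.0042 without brain replicate 2 and 0.0020 without spleen replicate 2, with -0.086 as the lowest value with 1 library left out (that of SDHA was -0.26). The median of complex II ranged from -0.32 to -0.10 with 1 library left out. The log2 ratio of summed TPM was -0.02 for complex II and -0.083 over human transcripts alone. For complex III it was -0.21, with -0.26 over protein-coding transcripts and -0.27 over human transcripts alone. For complex V it was -0.21, with -0.28 over human transcripts alone. Every subunit had at least 1317 counts in each library.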
